A study of Drosophila melanogaster
Mus musculus with 4 samples.

Results

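Isolated sites that were open in every library were the subject: autosomal accessible sites under 1000 bp wide, with no other site within 50000 bp on either side and with a peak in each of the 4 libraries. Of the 69709 sites in the authors' table, 1112 (1.60%) met this rule. They were chosen by width, by distance to other sites and by the peak calls, so those values are given as descriptions and were not tested. The 37685 autosomal sites of the same width that also had a peak in each library but lay within 50000 bp of another site are called clustered sites and were set beside them. Coordinates are of the mouse build mm10.

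The libraries came from B220+CD43+ cells sorted from C57BL/6 bone marrow at 8 weeks of age: 2 libraries were Hdac3-deleted (labelled HDAC3 KO) and 2 were from Hdac3+/+ wild-type controls. Accessible DNA was measured by ATAC-seq, in which a transposase inserts sequencing adapters where DNA is not covered by nucleosomes. Each library began with 50000 cells, and Drosophila S2 cells were added at 5%. The labels do not name the Cre driver. From the published study it is known that deletion used Cre expressed from the Cd79a (mb-1) locus, which is active from the first B-lineage stages, and the labels do not say whether the controls carried this Cre. The labels do not say that the 2 libraries of a genotype came from separate mice, so a p-value here covers the spread among samples that may be technical repeats. Whether the sorted cells carried open chromatin at B-lineage genes was not analysed here, because no mouse annotation was used, and for the same reason no gene name or sequence is given for a site.

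Hdac3 encodes a histone deacetylase that works as the catalytic subunit of the NCoR and SMRT corepressor complexes, which are brought to DNA by transcription factors and remove acetyl groups from histones. Cells with both B220 and CD43 on their surface include the B cell precursors that assemble the immunoglobulin heavy chain genes. Accessible sites in mammalian genomes mostly lie close together, at promoters and in groups of enhancers around active genes. Sites far from any other are commonly found in gene-poor stretches, where open DNA can be a remote enhancer, a boundary element bound by CTCF or the promoter of a lone gene. Which of these an isolated site is cannot be read from its position alone.

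The isolated sites were 152 to 998 bp wide, with a median of 453.5 bp, against 436 bp for clustered sites. Their nearest other site was 78.2 kb away at the median, with an upper quartile of 126 kb and a largest distance of 2681 kb. The setting was not always empty: the median isolated site had 19 other sites within 500 kb of it, while 34 had 0. Most stood singly along the chromosome, with 757 that had no other isolated shared site as the next site. Another 248 came in neighbouring pairs, 63 in runs of 3 and 44 in runs of 4. Chromosome 13 held 77 of them (2.40% of its sites) and chromosome 11 held 41 (0.910%), the highest and lowest shares among the 19 autosomes. The longest run of 4 spanned 4793 kb of chromosome 5, and 0 of its 4 sites passed the test of genotype at an adjusted p under 0.05.

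Just inside the width limit were chr1:58504250-58505247 and chr5:25759615-25760612, both 998 bp wide, which averaged 958 and 504.5 normalized reads in Hdac3-deleted cells and 1068 and 535 in wild type. Just outside it were chr14:65261946-65262945, 1000 bp wide, with 352 normalized reads in Hdac3-deleted cells and 354 in wild type, and chr10:11149098-11150104, 1007 bp wide, with 3036 in Hdac3-deleted cells and 2815 in wild type. For distance, chr17:78654769-78655419 and chr11:26386819-26387763 were 50067 and 50069 bp from their nearest site, while chr3:159891139-159891666 and chr7:103712078-103712333, at 49942 and 49958 bp, were left out.

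Values are the authors' normalized reads per site, each a whole number of reads multiplied by a factor of its library. The median isolated site held 145 and 98.5 reads before scaling in Hdac3-deleted replicates 1 and 2, and 175 and 101 reads in wild-type replicates 1 and 2. The smallest held 38 and 22 reads in the Hdac3-deleted libraries and 42 and 34 in wild type, so none of the sites was near a count of 0. On the normalized scale the median isolated site had 145 and 131 reads in Hdac3-deleted replicates 1 and 2, against 116 and 115 in wild-type replicates 1 and 2. Both Hdac3-deleted medians lay above both wild-type medians. Among clustered sites the medians were 192 and 189 in Hdac3-deleted cells and 180.0 and 178 in wild type. Per kb of site, isolated sites averaged 308 normalized reads at the median over the 4 libraries, from 134 to 4484, and clustered sites 435.

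Isolated sites held 1.33% of the reads counted in all sites of Hdac3-deleted replicate 1 (95% Wilson interval 1.33 to 1.34) and 1.25% of those of replicate 2 (1.24 to 1.26). In wild type they held 1.17% in replicate 1 (1.17 to 1.18) and 1.18% in replicate 2 (1.17 to 1.18). These intervals cover counting error only. The mean share was 1.29% ± 0.0601 in Hdac3-deleted cells and 1.18% ± 0.00269 in wild type (SD, n = 2 each). The libraries of the genotypes did not overlap, but the exact two-sided permutation test gave p = 0.333, the smallest that 2 libraries against 2 allow. Clustered sites held 52.1% ± 0.164 of the reads in Hdac3-deleted cells and 50.8% ± 0.579 in wild type (SD, n = 2 each, exact permutation p = 0.333). Set against clustered sites within each library, the mean log2 level of isolated sites differed by -0.31 and -0.42 in Hdac3-deleted replicates 1 and 2, and by -0.47 and -0.45 in wild-type replicates 1 and 2 (exact two-sided permutation p = 0.333). The genotypes did not overlap in this measure either, and a difference between the classes in their response cannot pass a test of this size.

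Since the rule asked for a peak in each library, peak values are a description. The fold enrichment over local background, the authors' value for each peak, had a median of 7.88 and 9.35 in Hdac3-deleted replicates 1 and 2, and of 8.21 and 7.74 in wild-type replicates 1 and 2. At clustered sites the medians were 6.26 and 7.69 in Hdac3-deleted cells and 6.83 and 6.81 in wild type. The median pileup at the summit of isolated sites was 43 and 36 fragments in Hdac3-deleted cells and 54 and 39 in wild type. At clustered sites it was larger in each library, with 51.0 and 47 in Hdac3-deleted cells and 70.0 and 51.0 in wild type. The pileup is not scaled for depth, so it cannot be compared between libraries. Tags left after filtering were 57880292 and 36656102 in Hdac3-deleted replicates 1 and 2, and 70540115 and 52188549 in wild-type replicates 1 and 2. The fold enrichment is taken against each site's own surroundings, so it is not a level. Peaks were called with 1 tag per position, which also limits pileup and enrichment at strong sites. In Hdac3-deleted replicate 1 the enrichment was 11.4 at chr9:19621776-19622521, which held 3741 reads before scaling. It was 13.6 at chr6:40071030-40071473, which held 447. The summit, the base with most fragments, lay in nearly the same place in every library: the 4 summits of an isolated site spanned 40 bp at the median, and at 720 of the 1112 sites (64.7%) they fell within 50 bp. Clustered sites had the same median span of 40 bp. Between the Hdac3-deleted replicates the summit moved by 19 bp at the median, between the wild-type replicates by 16 bp, and between libraries of different genotype by 17 to 19 bp.

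Which isolated sites differed in accessibility when Hdac3 was absent was tested with limma on log2(normalized reads + 1), fitted over all sites. In Hdac3-deleted cells 196 isolated sites were higher and 79 were lower at a Benjamini-Hochberg adjusted p under 0.05, and 837 did not pass. These were 17.6% and 7.10% of the isolated sites, while 11.7% of all sites passed the test as higher and 8.90% as lower (20.6% in either direction). Among clustered sites 12.2% were higher and 7.48% lower. The median log2 fold change of Hdac3-deleted over wild-type cells was 0.09 at isolated sites, 0.03 at clustered sites and -0.01 over all sites. At 396 of the 1112 isolated sites the unadjusted p was under 0.05, as it was at 22991 of all 69709 sites. The fold changes of isolated sites lay between -1.84 and 2.14 on the log2 scale. The higher sites had a median of 1.21 and the lower sites a median of -0.81. Of the higher isolated sites 134 had a log2 fold change above 1, and of the lower ones 26 had one below -1. Of all sites, 7.81% passed with a log2 fold change above 1 and 3.69% with one below -1. By the rule, no site without a peak in one of the libraries is among them. In bulk samples, fewer cells with an open site and a less open site in every cell cannot be told apart.

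**Figure D1:**
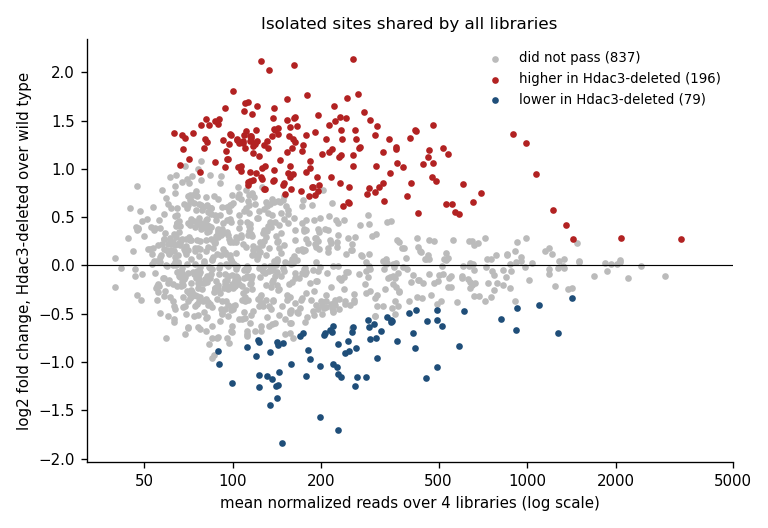
Each point is 1 of the 1112 isolated sites, with its mean normalized reads over the 4 libraries on a log axis and its log2 fold change of Hdac3-deleted over wild-type cells. Red points (196) passed the test as higher, blue points (79) as lower, and grey points (837) did not pass. The fold changes run from -1.84 to 2.14, and the site at the far right, with 3345 normalized reads, lies at 0.27.

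Counts without a model gave the same order. At 410 isolated sites (36.9%) both Hdac3-deleted libraries lay above both wild-type libraries, as they did at 30.1% of all sites. The opposite was seen at 279 isolated sites (25.1%) and at 30.5% of all sites. By the authors' deposited table, 241 isolated sites were higher and 82 lower at an FDR under 0.05, against 15.3% and 9.80% of all sites in that table. The calls made here and those in the authors' deposited table had 250 isolated sites in common, all with the same direction, which was 90.9% of the calls made here and 77.4% of those in the authors' deposited table. Without wild-type replicate 1, the deepest library, 134 isolated sites were higher (12.1%) and 29 lower (2.61%), and over all sites these shares were 6.22% and 3.24%. Without Hdac3-deleted replicate 1, 133 isolated sites were higher (12.0%) and 60 lower (5.40%), against 6.08% and 6.13% of all sites. Scaling the libraries to their filtered tags gave 144 higher (12.9%) and 29 lower (2.61%), against 8.30% and 4.24% of all sites. The share of calls that were higher was then 83.2% in place of 71.3%, with fewer calls in both directions.

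The replicates stood in the same order at most of the sites that rose. Of the 196 higher sites, Hdac3-deleted replicate 1 lay above replicate 2 at 157, and wild-type replicate 1 lay below replicate 2 at 155. At the 79 lower sites wild-type replicate 1 was above replicate 2 at 58, and Hdac3-deleted replicate 1 was below replicate 2 at 43. Among the isolated sites that did not pass, the first replicate was above the second at 60.1% in Hdac3-deleted cells and at 53.0% in wild type. Over all sites it was above the second at 51.1% in Hdac3-deleted cells and at 49.6% in wild type. In the authors' column names Hdac3-deleted replicate 1 and wild-type replicate 2 carry the letter B, and the other libraries carry A. By letter, the B library was thus above the A library at most higher sites in both genotypes. The labels do not say what the letters mark, and the part of this order in the calls was not tested. At the median isolated site the Hdac3-deleted replicates differed by 0.25 on the log2 scale and the wild-type replicates by 0.25, against 0.36 to 0.45 between libraries of different genotype.

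Distance to the nearest site was followed among all shared autosomal sites under 1000 bp, isolated and clustered together. Sites with a neighbour within 1 kb were the one class with more falls than rises: in Hdac3-deleted cells 8.63% of 12224 rose and 9.72% fell. From 1 to 50 kb the share of higher sites stayed between 13.4% and 14.5% and that of lower sites between 6.16% and 6.93%. Among the isolated sites, 17.2% of the 744 at 50 to 100 kb and 20.6% of the 243 at 100 to 200 kb were higher, with 6.59% and 7.82% lower. Beyond 200 kb, 18 of 125 were higher (14.4%) and 11 lower (8.80%). The median level differed along the same axis: it was 126 normalized reads beyond 200 kb and 213 for sites with a neighbour within 1 kb. Its part in these shares was not tested.

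**Figure D2:**
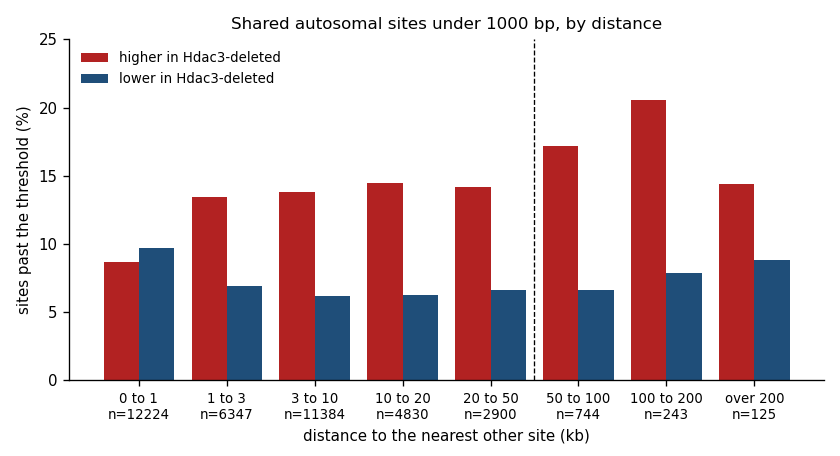
Bars give the percentage of shared autosomal sites under 1000 bp that were higher (red) or lower (blue) in Hdac3-deleted cells, by the distance to the nearest other site in kb; n is the number of sites, and the dashed line marks 50 kb, right of which the sites are the isolated ones. Red bars reach 20.6% at 100 to 200 kb and 14.4% beyond 200 kb, and only sites with a neighbour within 1 kb have a blue bar (9.72%) above the red (8.63%).

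Isolated and clustered sites were also set side by side by level, in 5 classes of equal size cut from the isolated sites' mean over the 4 libraries. In the lowest class, up to 78.2 normalized reads, few sites of either kind passed: 9 of 223 isolated sites were higher (4.04%), against 3.22% of clustered sites. None of the 223 passed as lower by limma (0), where 1 had an unadjusted p under 0.05 and edgeR and DESeq2 called 0 each. The rule left out isolated sites without a peak in some library, which had a median of 48.5 normalized reads. Its part in this 0 was not tested. In the second class 14.0% of isolated and 11.7% of clustered sites were higher, and 1.35% and 1.84% were lower. In the middle class 24.3% of isolated and 15.3% of clustered sites were higher, and 8.56% and 4.93% were lower. In the class above it these shares were 26.1% and 15.8% higher, and 13.1% and 9.05% lower. Above 293 normalized reads 19.7% of isolated and 10.4% of clustered sites were higher, while 12.6% and 12.5% were lower. The share of higher sites was larger at isolated sites in each of the 5 classes, and the share of lower sites was smaller at isolated sites in the lowest 2. Levels still differ within a class: above 293 normalized reads the medians were 515 at isolated and 493 at clustered sites. Sites are not replicates of a genotype, so no p-value is given for these shares.

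**Figure D3:**
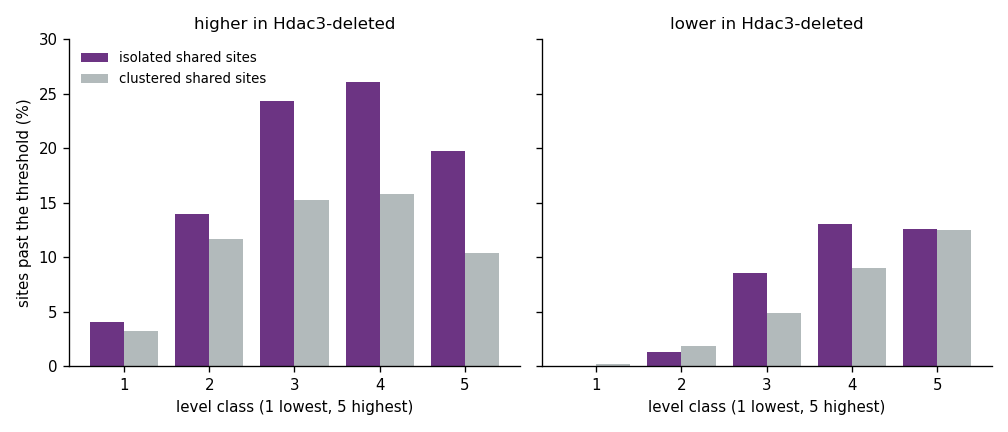
Bars give the percentage of isolated (purple) and clustered (grey) shared sites that were higher (left) or lower (right) in Hdac3-deleted cells, by class of mean level, 1 being the lowest and 5 the highest. In the left panel the purple bar is the taller in each class (26.1% against 15.8% in class 4), and in the right panel the bars of class 5 are nearly equal (12.6% and 12.5%).

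The direction of the calls differed by width among the isolated sites. Of the 250 under 300 bp, 27 were higher (10.8%) and 0 lower. Of these 250, 4 had an unadjusted p under 0.05 in the lower direction, and edgeR called 1 lower and DESeq2 0. From 300 to 500 bp, 91 of 388 were higher (23.5%) and 16 lower (4.12%). From 500 to 700 bp, 46 of 239 were higher (19.2%) and 26 lower (10.9%). In the widest class, from 700 bp up, 32 of 235 were higher (13.6%) and 37 lower (15.7%). The median log2 fold change of that class was -0.04, against 0.22 under 300 bp. Clustered sites had a like order, with 78.7% of the calls higher under 300 bp and 42.3% from 700 bp up. Of clustered sites under 300 bp, 7.88% were higher and 2.13% lower. From 300 to 500 bp these shares were 15.0% and 6.98%, from 500 to 700 bp 15.4% and 10.5%, and from 700 bp up 8.57% and 11.7%. Over all sites of any width 11.7% were higher and 8.90% lower. Narrow isolated sites were also the lowest, at a median of 70.2 normalized reads under 300 bp and 444 from 700 bp up, and the part of level in this order was not tested. The rule left out 319 isolated sites with 2 peaks in wild type and 0 in Hdac3-deleted libraries, at a median of 235 bp and 44.2 normalized reads. Of these 319, 81 were lower. It also left out 192 with the reverse, at a median of 224 bp and 45.0 normalized reads, of which 138 were higher. The part of the rule in the 0 falls under 300 bp was not tested.

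By chromosome, the isolated sites of chromosome 15 had the largest share of rises, 17 of 49 (34.7%), with 3 lower, while 13.2% of all sites of chromosome 15 were higher and 8.09% lower. Their median log2 fold change was 0.44. On chromosome 16, 12 of 53 were higher and 1 lower, against 13.0% and 7.42% of all its sites. On chromosome 10, 13 of 73 were higher and 1 lower, against 9.78% and 8.30% of all its sites. Chromosome 8 had more falls than rises, 4 higher and 6 lower of 50, against 12.6% and 8.37% of all its sites. On chromosome 19 there were 4 of each among 28, with 9.38% of all its sites higher and 8.61% lower. These counts are small and were not compared by a test.

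The sites next to an isolated site, at least 50 kb away on either side, followed it in part. A flanking site was counted once for each isolated site beside it, so the counts below can hold the same site more than once. Some flanking sites were themselves isolated sites with a peak in each library. Over all sites 11.7% were higher and 8.90% lower. Of the 392 flanking sites of the higher isolated sites 20.4% were also higher and 8.67% lower, and their median log2 fold change was 0.15. Around the lower isolated sites 11.4% of 158 flanking sites were higher and 9.49% lower, with a median of -0.06. Around isolated sites that did not pass, 15.0% were higher and 8.80% lower, with a median of -0.007. The share of higher flanking sites was thus largest beside higher isolated sites, while the share of lower ones differed little. At 101 of the 196 higher isolated sites (51.5%) neither flanking site passed the test, and at 11 both were higher. Neither passed at 60.8% of the 79 lower isolated sites. The same held at 58.5% of the 834 that did not pass and had a site on both sides. Both flanking sites were higher at 0 of these 79 and at 24 of these 834. The difference was not tested.

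Sites were named by size of change among those at or above the median level whose genotypes did not overlap; 127 higher and 70 lower isolated sites qualified, and the 10 largest of each are given. The largest rise was at chr6:40071030-40071473, 71.2 kb from its nearest site. It held 447 and 392 normalized reads in Hdac3-deleted replicates 1 and 2, against 89.7 and 98.7 in wild-type replicates 1 and 2. The genotypes were far apart and the replicates close: 419 ± 38.7 in Hdac3-deleted cells and 94.2 ± 6.39 in wild type (SD, n = 2 each). The log2 fold change was 2.14 (SE 0.21, limma, Benjamini-Hochberg adjusted p = 2.11e-05). Its peak was enriched 13.6 and 16.9-fold over background in the Hdac3-deleted libraries and 8.28 and 8.76-fold in wild type. Neither flanking site passed the test, with log2 fold changes of 0.04 and 0.84.

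A pair of the largest rises lay on chromosome 15. At chr15:4170592-4171085 the Hdac3-deleted replicates had 287 and 231 normalized reads and the wild-type replicates 45.8 and 79.4, a log2 fold change of 2.07 (SE 0.29, limma, Benjamini-Hochberg adjusted p = 0.000268). Both of its flanking sites, 82.3 and 174 kb away, were also higher, by 1.41 and 1.80 on the log2 scale. At chr15:60675146-60675604 there were 248 and 179 normalized reads in Hdac3-deleted cells and 45.2 and 57.9 in wild type (log2 fold change 2.02). Here the flanking site at 69.5 kb was higher and the one at 159 kb did not pass.

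The site at chr4:67424079-67424453 stood at the edge of a stretch of 2841 kb without a site. It held 527 and 304 normalized reads in Hdac3-deleted replicates 1 and 2, against 97.6 and 138 in wild type, and rose by 1.77 on the log2 scale, while the flanking site 191 kb away on its other side passed as lower (log2 fold change -1.79). Hdac3-deleted replicate 1 was well above replicate 2 at this site. Of the 10 rises, the one in the emptiest setting was at chr12:66560387-66561265, with no other site for 1300.3 kb on one side and 2275 kb on the other. Its values were 439 and 393 normalized reads in Hdac3-deleted cells and 109 and 172 in wild type (log2 fold change 1.59, SE 0.23, limma, Benjamini-Hochberg adjusted p = 0.000319).

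At chr9:80441186-80441659 the Hdac3-deleted replicates held 417 and 335 normalized reads and the wild-type replicates 95.0 and 132 (log2 fold change 1.73). Both of its flanking sites were higher as well, by 0.99 and 2.61 on the log2 scale. At chr13:104447029-104447486 there were 339.7 and 215 normalized reads in Hdac3-deleted cells and 63.8 and 97.6 in wild type (1.76), with 2 flanking sites that did not pass. The site at chr3:50123776-50124201 had 258 and 211 in Hdac3-deleted cells and 61.1 and 80.5 in wild type (1.72), between a flanking site that did not pass and one that was lower. At chr11:34424150-34424544 the values were 236 and 179 in Hdac3-deleted cells and 48.5 and 89.6 in wild type (1.63). The widest of the 10, chr9:50271524-50272439, was also the least even, with 393 and 259 normalized reads in Hdac3-deleted cells and 59.8 and 169 in wild type. It passed limma (log2 fold change 1.65, Benjamini-Hochberg adjusted p = 0.00391) but not DESeq2 (adjusted p = 0.173), and its log2 fold change was 0.91 without wild-type replicate 1 and 2.40 without wild-type replicate 2. In all 10 of these sites Hdac3-deleted replicate 1 was above replicate 2 and wild-type replicate 1 below replicate 2.

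**Figure D4:**
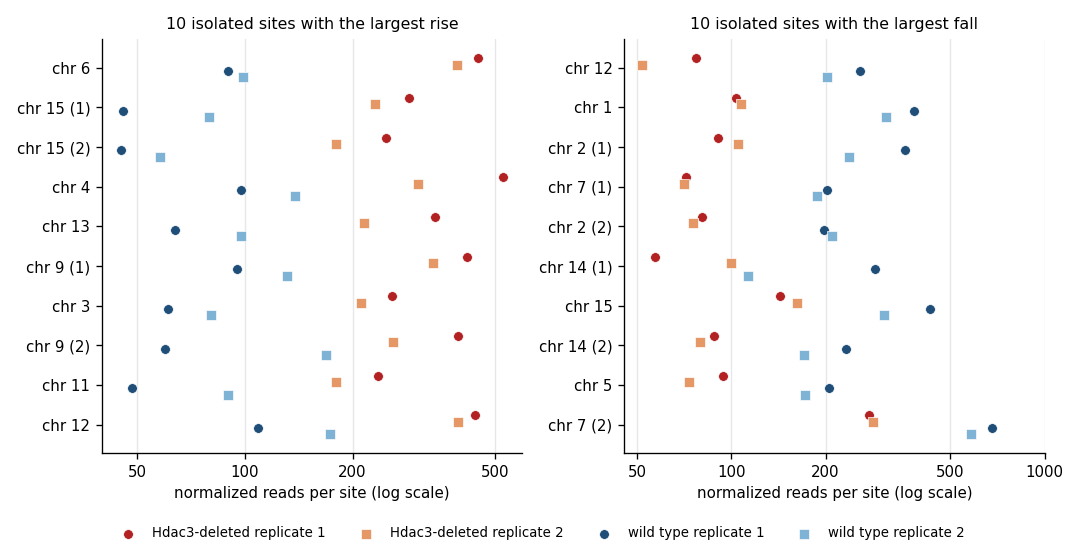
Normalized reads per site (log axis) in each of the 4 libraries at the 10 isolated sites with the largest rise (left) and the largest fall (right), named by chromosome from the largest change down; points are single libraries, offset vertically so that they can be told apart. On the left both red and orange Hdac3-deleted points lie right of both blue wild-type points at each site; on the right they lie left of them, closest on the first chromosome 14 site (99.6 and 113 normalized reads).

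The largest fall was at chr12:90645453-90645805, 78.8 kb from its nearest site. Hdac3-deleted replicates 1 and 2 held 76.9 and 51.8 normalized reads there, and wild-type replicates 1 and 2 held 258 and 202. The log2 fold change was -1.84 (SE 0.27, limma, Benjamini-Hochberg adjusted p = 0.000447), and neither flanking site passed. At chr1:33342279-33342926 the values were 104 and 108 in Hdac3-deleted cells and 384 and 312 in wild type (log2 fold change -1.70, SE 0.22, limma, Benjamini-Hochberg adjusted p = 0.000156), and the flanking site 59.7 kb away was also lower (-0.56). At chr2:133802668-133803437 they were 90.9 and 105 in Hdac3-deleted cells and 359 and 237 in wild type (-1.57).

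The Hdac3-deleted replicates were nearly equal at several of the falls. At chr7:111779883-111780266 they held 71.9 and 70.4 normalized reads, against 202 and 188 in wild type (log2 fold change -1.44). At chr2:76801161-76801617 they held 80.9 and 75.7, against 198 and 209.9 in wild type (-1.37). The highest of the 10 sites, chr7:39449232-39450141, had 276 and 284 normalized reads in Hdac3-deleted cells and 679 and 581 in wild type (log2 fold change -1.16, SE 0.16, limma, Benjamini-Hochberg adjusted p = 0.000253). It lay 1177 kb from the next site on one side and 67.4 kb on the other. At chr15:63371320-63371970 the values were 143 and 162 in Hdac3-deleted cells and 429.7 and 307 in wild type (-1.25).

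For 3 of the 10 falls the call rested on wild-type replicate 1. At chr14:102039256-102039786 the values were 56.9 and 99.6 normalized reads in Hdac3-deleted cells and 288 and 113 in wild type. The wild-type libraries were farther apart there than the genotypes at their nearest, and the log2 fold change, -1.25 by limma (Benjamini-Hochberg adjusted p = 0.0241), became -0.58 without wild-type replicate 1 (adjusted p = 0.423), -1.92 without wild-type replicate 2 and -0.85 without Hdac3-deleted replicate 1 (adjusted p = 0.130). At chr14:48655006-48655364 there were 87.9 and 79.7 in Hdac3-deleted cells and 233 and 170.2 in wild type, with a log2 fold change of -1.24, and the limma adjusted p was 0.0614 without wild-type replicate 1. At chr5:39098885-39099447 there were 93.9 and 73.1 in Hdac3-deleted cells and 205 and 172 in wild type, with a log2 fold change of -1.17, and that p was 0.0513. Each of the 10 rises passed the limma test with any 1 library left out. Among the 20 flanking sites of the 10 falls 2 were lower and 1 higher, and among those of the 10 rises 8 were higher and 2 lower. Over all sites 11.7% were higher and 8.90% lower.

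The 5 isolated sites with the highest levels had small log2 fold changes, between -0.13 and 0.28, and 2 of them passed. This does not hold for high sites in general: above 293 normalized reads 72 of 223 isolated sites passed. At chr9:19621776-19622521, the highest at 4484 normalized reads per kb, Hdac3-deleted replicates 1 and 2 held 3738 and 3582 normalized reads, against 3008 and 3053 in wild type. The genotypes did not overlap, and the log2 fold change of 0.27 (SE 0.06) passed the limma test with an adjusted p of 0.00617. That p was 0.0502 without wild-type replicate 1 and 0.726 when reads were divided by the filtered tags. At chr13:62466359-62467217 the values were 2262 and 2332 in Hdac3-deleted cells and 1879 and 1896 in wild type (log2 fold change 0.28, limma adjusted p = 0.0155). This call was lost without wild-type replicate 1 (adjusted p = 0.0979), without wild-type replicate 2 (0.0550) and with the filtered tags (0.718). The other three did not pass: chr8:91312915-91313862 had 2857 and 2818 in Hdac3-deleted cells and 3040.4 and 3072 in wild type (-0.11). The site at chr16:43889406-43890281 had 2496 and 2361 in Hdac3-deleted cells and 2394 and 2497 in wild type (-0.01), between 2 flanking sites that were both higher. At chr13:86046183-86047041 there were 1970.2 and 2242 in Hdac3-deleted cells and 2307 and 2307 in wild type (-0.13).

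Of the 5 sites farthest from any other, 1 passed the test. The most remote was chr12:61994127-61994779, with no other site for 2681 kb on one side and 2826 kb on the other. Its values were 141 and 264 normalized reads in Hdac3-deleted cells and 348 and 262 in wild type. The genotypes overlapped, and the log2 fold change of -0.64 had a limma adjusted p of 0.0879, which was 0.0132 without wild-type replicate 2 and 0.00359 without Hdac3-deleted replicate 2. Both of its distant flanking sites were higher. At chr4:91376320-91376747, about as far from its neighbours on both sides (1499.9 and 1565 kb), there were 119 and 85.0 in Hdac3-deleted cells and 222 and 144 in wild type. The log2 fold change was -0.83 (limma adjusted p = 0.0429), and this call was lost without wild-type replicate 1 (log2 fold change -0.51, adjusted p = 0.428), without Hdac3-deleted replicate 2 (0.173), in DESeq2 (0.0691) and under 2 other scalings (0.0504 and 0.0900).

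The remaining remote sites did not pass. At chr5:59996496-59997138 there were 697 and 709 normalized reads in Hdac3-deleted cells and 645 and 541 in wild type (log2 fold change 0.25). This site is in the longest run of isolated sites, on chromosome 5. At chr6:75476276-75476714 the values were 93.9 and 114 in Hdac3-deleted cells and 118 and 59.0 in wild type (0.31), with overlap. At chr18:28399880-28400354 they were 108 and 94.3 in Hdac3-deleted cells and 115 and 86.2 in wild type (0.02), also with overlap.

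Some isolated sites had nearly the same value in each library. The steadiest of those at or above the median level, chr9:71485416-71486109, held 358 and 348 normalized reads in Hdac3-deleted cells and 348 and 349 in wild type, a coefficient of variation of 1.32%. The median over all isolated sites was 22.5%, and over clustered sites 17.8%. At chr16:7419687-7420313 the values were 222 and 217 in Hdac3-deleted cells and 222 and 218 in wild type. At chr2:134785958-134786783 they were 159.9 and 157 in Hdac3-deleted cells and 154 and 157 in wild type. A pair of steady sites was much higher. The site at chr15:43282200-43283122 held 1306 and 1347 in Hdac3-deleted cells and 1319 and 1339.8 in wild type, although 1 of its flanking sites was higher. At chr2:177839814-177840709 there were 1297 and 1321 in Hdac3-deleted cells and 1262 and 1269 in wild type. They were picked for their small spread, so their fold changes, between -0.01 and 0.05 on the log2 scale, are a description.

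**Figure D5:**
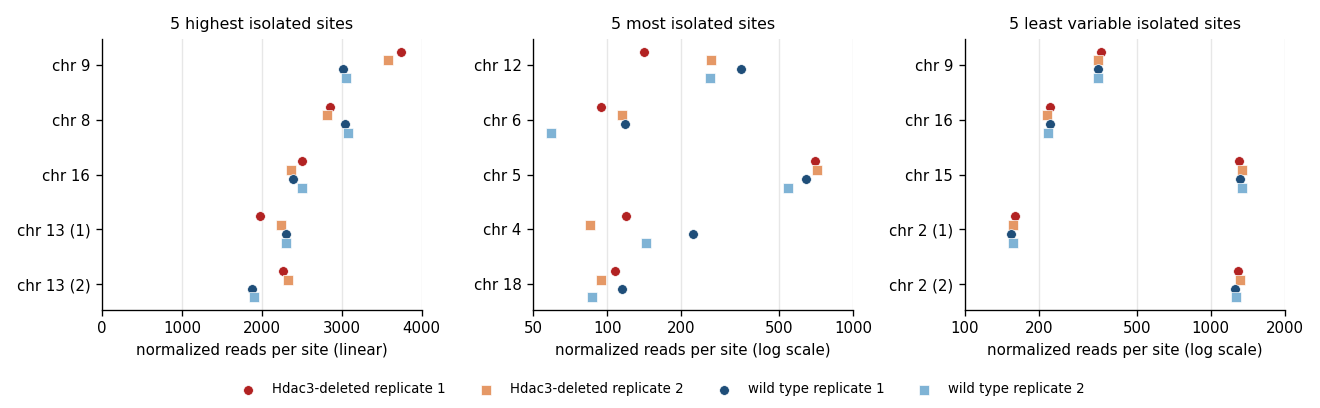
Normalized reads per site (linear axis at the left, log axes in the other panels) in each of the 4 libraries at the isolated sites with the highest level, the greatest distance from any other site and the smallest spread, named by chromosome; points are single libraries, offset vertically. Points of the smallest-spread sites coincide, while those of the remote chromosome 12 site reach from 141 to 348 normalized reads.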

How the data were processed

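ATAC-seq reads of 4 libraries (Hdac3KO and WT, 2 each) were aligned and filtered by the authors. Tools named in the submitters' processing notes are DiffBind 1.10.2, edgeR, MACS2 2.0.10, Bowtie2 2.2.4 and SAMtools, and the builds are mm10 and dm3. Per the file headers, peaks were called per library with a q cutoff of 0.001, an extension of 140 bp, 1 tag per position and no control. The authors' deposited peak lists hold a pileup signal, a fold enrichment ratio and −log10 p and −log10 q values per peak, as MACS2 wrote them. The authors' deposited site table holds normalized reads (a signal), log2 fold changes, p-values and FDR. No fly chromosome (0) is in it, so the spike-in was not used. Without it, a change in accessibility common to most sites cannot be told from a difference in library size. Rises and falls are therefore relative to the other sites.

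Site reads numbered 21177343 and 16132402 (Hdac3KO) and 32988999 and 19017456 (WT). Division by the value of 1 read (0.999 and 1.33, then 0.664 and 1.13) gave whole reads for 100% of values within 0.001 reads. Without molecular identifiers, reads may be copies of 1 molecule. limma 3.58.1 (R 4.3.3, trend) was fitted to log2(value + 1) over all 69709 sites, with Hdac3KO minus WT and Benjamini-Hochberg adjustment at 0.05, so folds are on that scale. Alternatives were edgeR 4.0.16 and DESeq2 1.42.0 on the recovered reads, other scalings, pseudocounts, filters, blocks, left-out libraries and rule settings. The code was tested on simulated data. Members and lists were chosen with earlier results of these data known. Sites were named by fixed rules: the 10 largest changes per direction at or above the median level without overlap of the genotypes, the 5 highest, 5 most remote and 5 steadiest, and 2 on each side of each limit. Sequence, motifs and genes were not analysed here.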

Additional observations from a re-analysis of the deposited data

How the results depend on the processing

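The count of 275 calls (196 higher, 79 lower) stayed within 1.5 times under other size factors, library totals, loess, pseudocounts, the filter on low values, edgeR (198 higher, 78 lower) and DESeq2 (175 higher, 62 lower). With reads divided by filtered tags it was 173, with 29 lower. At an adjusted p under 0.01 it was 166 (128 higher, 38 lower). Over all sites, 12.3% were higher and 8.71% lower in edgeR, and 9.23% and 6.67% in DESeq2. With filtered tags these all-site shares were 8.30% and 4.24%. For an adjusted p under 0.01 no share over all sites is given. With an isolation distance of 25000 bp, 689 of 3013 sites passed (477 higher, 212 lower), and with 100000 bp 98 of 368 (68 higher, 30 lower). Where peaks had to cover 50% of the site, 143 of 851 were higher (16.8%) and 47 lower (5.52%), against 17.6% and 7.10% by the main rule. Leaving out 1 library, where the lone library left is assumed to vary like the other group, gave 163 to 286 calls (133 to 213 higher, 29 to 80 lower), the fewest without wild-type replicate 1 (163). The median log2 fold change of the isolated sites then lay between 0.05 and 0.13, and 17 to 20 of the 20 sites with the largest changes passed. Libraries with the same replicate number did not deviate together (correlation -0.104 over all sites and -0.169 over the isolated sites). With 2 libraries per genotype, these negative values mean that libraries with crossed numbers tended weakly to deviate in the same direction. The labels do not say that any libraries were paired, and the main fit used no pairing. With the replicate number as a block 277 sites passed (200 higher, 77 lower), and with the numbers crossed, a pairing chosen after seeing the data, 347 (237 higher, 110 lower). The shares over all sites were 11.6% higher and 8.76% lower with the block. With the numbers crossed they rose as well, to 15.2% higher and 12.6% lower. The crossed pairs are the ones that carry the same letter, A or B, in the authors' column names, and the labels do not say what the letters mark. For single sites, 485 of 525 comparisons (35 sites, 15 settings) kept direction and side of the threshold, 15 lost the call and 3 gained it. The sign changed in 22, all at sites that did not pass. At chr16:43889406-43890281 (-0.01) the log2 fold change was 0.019 with library totals, 0.077 with loess, 0.00081 in edgeR and -0.051 to 0.030 with 1 library left out. With 1 library left out it was also -0.18 to 0.80 at chr6:75476276-75476714 (0.31) and -0.19 to 0.22 at chr18:28399880-28400354 (0.02), where loess gave -0.048. Among the steadiest sites, chr16:7419687-7420313 had 0.023 with library totals, 0.0036 in edgeR and -0.024 to 0.011 with 1 library left out. The site at chr15:43282200-43283122 had 0.00022 with DESeq2 size factors, 0.027 with library totals, 0.077 with loess, 0.0069 in edgeR, 0.00032 in DESeq2 and -0.026 to 0.019 with 1 library left out. At chr9:71485416-71486109 the range with 1 library left out was -0.0026 to 0.037, and at chr2:134785958-134786783 loess gave -0.0033. The causes were not tested. With 22 to 42 reads at the smallest site of a library, small changes at low sites are not detectable at this depth.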

Other observations

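Isolated sites under 1000 bp that lacked a peak in at least 1 library numbered 1179, and in Hdac3-deleted cells 187 of them were higher (15.9%) and 116 lower (9.84%), against 11.7% and 8.90% of all sites. They were lower in level, at a median of 48.5 normalized reads against 130.0 for the isolated sites with a peak in each library. Of the 192 with a peak in both Hdac3-deleted libraries and in 0 wild-type libraries, 138 passed the limma test as higher. Of the 319 with 0 peaks in Hdac3-deleted libraries and 2 in wild type, 81 passed as lower. The peak calls come from the same reads as the levels, so these counts describe the classes and support nothing. Isolated sites with a peak in each library and a width of 1000 bp or more numbered 221, of which 9 were higher (4.07%) and 37 lower (16.7%), at a median level of 1117 normalized reads. On the X chromosome 67 isolated sites met the other parts of the rule, with 7 higher and 7 lower (10.4% each).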
